A study of Mus musculus with 12 samples.

Results

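The epidermal growth factor (EGF) family was followed in sorted mouse crypt cells through 10 genes, which were taken by gene symbol from the 55414 genes of the count table. The 10 genes were the ligand genes Egf, Tgfa, Hbegf, Areg, Ereg and Btc, the receptor genes Egfr, Erbb2 and Erbb3, and Lrig1, which codes for an inhibitor of these receptors. Each symbol matched an Ensembl identifier, and all 10 genes were among the 13057 genes that passed the filter on low counts. The data were bulk RNA-seq counts from 12 libraries of small intestinal crypt cells, sorted into Paneth cells and non-Paneth cells. There were 4 groups of 3 libraries, a group for either cell fraction of the WT mice and a group for either cell fraction of the GRKO mice. All mice were C57BL/6J, per the labels, and 8 to 12 weeks old, per the study's methods. The labels call the GRKO mice GRvillinKO, a name for mice that lack the glucocorticoid receptor gene Nr3c1 where villin is expressed, and give neither the alleles nor whether the WT mice carried a Cre or a floxed gene. The villin promoter is active in the intestinal epithelium as a whole, so that no group lacked the receptor in Paneth cells alone. All mice were naive, per the design text of the series. The Paneth gate took cells positive for CD24 and cKIT, of medium to high side scatter, and negative for CD31, CD45 and TER119, and how the non-Paneth cells were gated is not stated in what was available. The genotype was read from the sample titles, since the genotype entry of the labels followed the cell fraction in all 12 libraries.

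EGF family ligands are made as precursors in the cell membrane, and proteases of the ADAM family cut them free. The free ligand binds a receptor of the ErbB family, which pairs with another ErbB receptor and passes the signal on through RAS, the MAP kinases and PI3 kinase. In the small intestinal crypt, Paneth cells sit between the Lgr5-positive stem cells and are known as a source of EGF for them, and EGF is a standard component of the medium of intestinal organoids. Erbb2 binds no known EGF ligand by itself and works as a partner of the other receptors. Erbb3 has little kinase activity and serves mainly as a docking site for PI3 kinase.

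The count table lists genes by Ensembl identifier, and the ligand genes are ENSMUSG00000028017 (Egf), ENSMUSG00000029999 (Tgfa), ENSMUSG00000024486 (Hbegf), ENSMUSG00000029378 (Areg), ENSMUSG00000029377 (Ereg) and ENSMUSG00000082361 (Btc). The receptor genes are ENSMUSG00000020122 (Egfr), ENSMUSG00000062312 (Erbb2) and ENSMUSG00000018166 (Erbb3), and Lrig1 is ENSMUSG00000030029. Of the 10 genes, Ereg, Areg and Btc are neighbours on chromosome 5. In the GRCm39 annotation, Ereg spans chr5:91222157-91241505 and Areg spans chr5:91287451-91296291, both on the plus strand, and Btc spans chr5:91505120-91550883 on the minus strand. From the start of Ereg to the end of Btc the stretch measured 328.7 kb, and the ligand gene Epgn lies just before it. Egf spans chr3:129470410-129549093, Tgfa chr6:86172041-86252728 and Lrig1 chr6:94581510-94677242. Egfr spans chr11:16702198-16868158, Erbb2 chr11:98303203-98328542 and Erbb3 chr10:128403392-128425811. Of the exonic bases of Lrig1, 23.3% overlap a gene on the other strand, Slc25a26, and the shares were 16.3% for Hbegf and 10.1% for Egf. Since the sources used here do not say which strand was counted, reads of such a stretch and of the gene opposite to it cannot be told apart.

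RefSeq promoter windows (GRCm38.p6) were found for 7 of the 10 genes, in 8 windows. They were searched on both strands for 4 motifs because the deleted gene codes for a DNA-binding receptor. Hbegf, Ereg and Erbb3 had no window, so that their promoters were not searched. The Areg window is the only one of the 8 that held a match, to TGACGTCA, the cAMP response element, which is in 1.79% of all 32851 windows. The match is shown with 10 bases on each side, at chr5:91139528-91139555 on the plus strand of GRCm38.p6, with the motif in capitals and its first base 61 bases before the start of the gene.
Areg: ggctggtccgTGACGTCAcgggcggtgg
None of the 8 windows held AGAACA, a core motif of the glucocorticoid response element, which is in 19% of all windows. TGAGTCA, the AP-1 element, was in 5.2% of all windows, and the full palindromic glucocorticoid response element in 0.00913%, and neither was in the 8 windows.

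The libraries held 11126297 to 15910292 counts. Levels are given as CPM, the counts of a gene scaled to the total of its library, and fold changes as log2 values from edgeR after TMM scaling. The scaling matters here, because 5 Paneth genes alone (Lyz1, Defa24, Mmp7, Ang4 and Itln1) took 293149 to 361841 CPM of the WT Paneth libraries and 395 to 1159 CPM of the WT non-Paneth libraries. The TMM factors were 0.656 to 0.826 for Paneth and 1.2 to 1.5 for non-Paneth libraries. A CPM of a Paneth library thus stands for a higher level on the scale of the fold changes. For some genes, mean levels on that scale are given as TMM-scaled CPM where fractions are compared. Where only CPM are given, the fractions are not on the scale of the fold change. Scaling by library totals alone moved the median of all genes to -0.68 for WT Paneth against WT non-Paneth, to -1.05 for the same comparison in GRKO, to 0.31 in non-Paneth cells for GRKO against WT, and to -0.28 for the interaction. It left 1097 of 8989 called genes higher in WT Paneth cells and 816 of 10784 in GRKO Paneth cells, where TMM gave 3133 of 6624 and 2344 of 5117. For GRKO against WT in non-Paneth cells the higher calls were 4348 of 5826 with totals and 2283 of 4869 with TMM, and for the interaction 752 of 2588 and 1496 of 2446. Nr3c1 was at 33.0 to 41.1 CPM in WT and 4.73 to 12.1 CPM in GRKO Paneth cells, and at 135 to 160 CPM in WT and 19.6 to 36.2 CPM in GRKO non-Paneth cells, so that the transcript was reduced and not absent. Xist, a transcript of female cells, was at 127 and 257 CPM in the Paneth and non-Paneth libraries of WT replicate 2 and at 0.52 CPM or less in the other 10 libraries. By Xist, female cells were thus seen in WT libraries only, and sex was not balanced between the genotypes. The labels do not say that replicates came from separate mice, so that p-values measure the spread between these libraries. In bulk samples, fewer cells of a type and less RNA per cell cannot be told apart.

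The first question was how Paneth cells differ from the other crypt cells. Egf was the only ligand gene called higher in Paneth cells. It was at 11.2, 18.3 and 17.2 CPM in the WT Paneth libraries and at 0.31, 0.904 and 0.976 CPM in the WT non-Paneth libraries, a higher level in every Paneth library. With TMM-scaled means of 21.4 and 0.604 CPM, the log2 difference was 5.09 (SE 0.411, adjusted p = 2.76e-07 by edgeR's quasi-likelihood test). The residual Egf of the non-Paneth cells, 4 to 15 counts a library, was 4.69% of the Paneth CPM, whereas the 5 Paneth genes named above kept 0.161% to 0.742% of theirs. These shares are by library totals, without TMM scaling. Of the 10 genes, 9 were called, that is, had an adjusted p under 5%, with 2 genes higher and 7 lower in the Paneth fraction. Among all tested genes 50.7% were called, 24% higher and 26.7% lower.

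The other ligands were lower in WT Paneth cells or did not pass the test. Hbegf, which codes for a heparin-binding ligand, was at 7.60, 2.76 and 2.34 CPM in WT Paneth and at 35.5, 40.0 and 35.8 CPM in WT non-Paneth cells. Its TMM-scaled means were 5.50 and 30.6 CPM, a log2 difference of -2.45 (SE 0.276, adjusted p = 3.40e-06). The WT Paneth libraries differed among themselves, with replicate 1 well above replicates 2 and 3.

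Areg codes for amphiregulin and was all but missing from the Paneth libraries. It had 3, 0 and 3 counts in WT Paneth and 37, 52 and 48 counts in WT non-Paneth cells, and the groups were far apart. The ratio of the TMM-scaled sums of 6 and 137 counts was 0.0835, with an exact 95% interval of 0.0301 to 0.187 that covers counting error only. The fitted log2 difference was -3.54 (SE 0.570, adjusted p = 9.85e-05).

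Ereg codes for epiregulin and was lower as well, from few counts. The WT Paneth libraries had 0.392, 0.649 and 0.27 CPM, from 3 to 8 counts, and the WT non-Paneth libraries 3.57, 4.45 and 2.41 CPM. This gave a log2 difference of -2.25 (SE 0.501, adjusted p = 0.00151). Thus every WT non-Paneth library was above every WT Paneth library for Hbegf, Areg and Ereg, with or without TMM scaling. The same held for Tgfa, Egfr, Erbb2 and Erbb3, and how often it held among all genes was not counted.

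Tgfa and Btc differed least. Tgfa, which codes for transforming growth factor alpha, was at 10.6, 8.60 and 10.7 CPM in WT Paneth and at 22.2, 26.1 and 26.0 CPM in WT non-Paneth cells. On the TMM scale its means were 13.3 and 20.4 CPM, a log2 difference of -0.62 (SE 0.175, adjusted p = 0.00821). This difference became -0.47 with an adjusted p of 0.0635 without WT non-Paneth replicate 2, the Xist-positive library of that group. Btc, the gene of betacellulin, was at 2.74 to 3.49 CPM in WT Paneth and 4.96 to 6.51 CPM in WT non-Paneth cells. Its TMM-scaled means of 4.22 and 4.80 CPM were within the spread of the libraries, and the log2 difference of -0.20 (SE 0.261) had an adjusted p of 0.559. With library totals alone Btc was called, at -0.91 with an adjusted p of 0.00673, where the median of all genes was -0.68.

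The 3 receptor genes were lower in WT Paneth cells. Erbb3 was at 145, 128 and 126 CPM in WT Paneth and at 580, 654 and 503 CPM in WT non-Paneth cells. With TMM-scaled means of 179 and 478 CPM its log2 difference was -1.42 (SE 0.162, adjusted p = 3.12e-06). Erbb2 was at 73.9, 41.9 and 50.1 CPM against 267, 273 and 215 CPM. Its TMM-scaled means were 73.1 and 208 CPM, a log2 difference of -1.51 (SE 0.157, adjusted p = 1.24e-06). The groups did not overlap for either gene on either scale. Egfr, the receptor of Egf, was at 16.9, 15.01 and 19.4 CPM in WT Paneth and at 39.1, 37.4 and 45.5 CPM in WT non-Paneth cells. With TMM-scaled means of 23.0 and 33.6 CPM its log2 difference was the smallest of the receptors, -0.55 (SE 0.126, adjusted p = 0.0019).

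The Lrig1 result depended on the scale. Lrig1 was at 132, 101 and 123 CPM in WT Paneth and 112, 103 and 102 CPM in WT non-Paneth cells, and these ranges overlap. The TMM-scaled means were 159 ± 4.65 and 86.9 ± 4.15 CPM (SD, n = 3 each), a log2 difference of 0.87 (SE 0.102, adjusted p = 4.19e-06). With library totals alone it was 0.17 with an adjusted p of 0.298. Against the median of all genes, which was at -0.68 on that scale, Lrig1 remained on the higher side. Of the 4 stem cell markers Lgr5, Olfm4, Ascl2 and Smoc2, all 4 were called higher in WT Paneth cells with a median log2 difference of 1.28, and all 6 enterocyte markers (Alpi, Fabp1, Apoa1, Apoa4, Sis and Vil1) were called lower with a median of -5.45. All 3 tuft cell markers (Dclk1, Trpm5 and Pou2f3) were called higher with a median of 5.93, the 3 enteroendocrine markers (Chga, Chgb and Neurod1) were called lower with a median of -1.33, and 2 of the 4 goblet cell markers (Muc2, Tff3, Fcgbp and Clca1) were called lower. The part of these cell types in the differences of the EGF family genes was not tested.

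**Figure D1:**
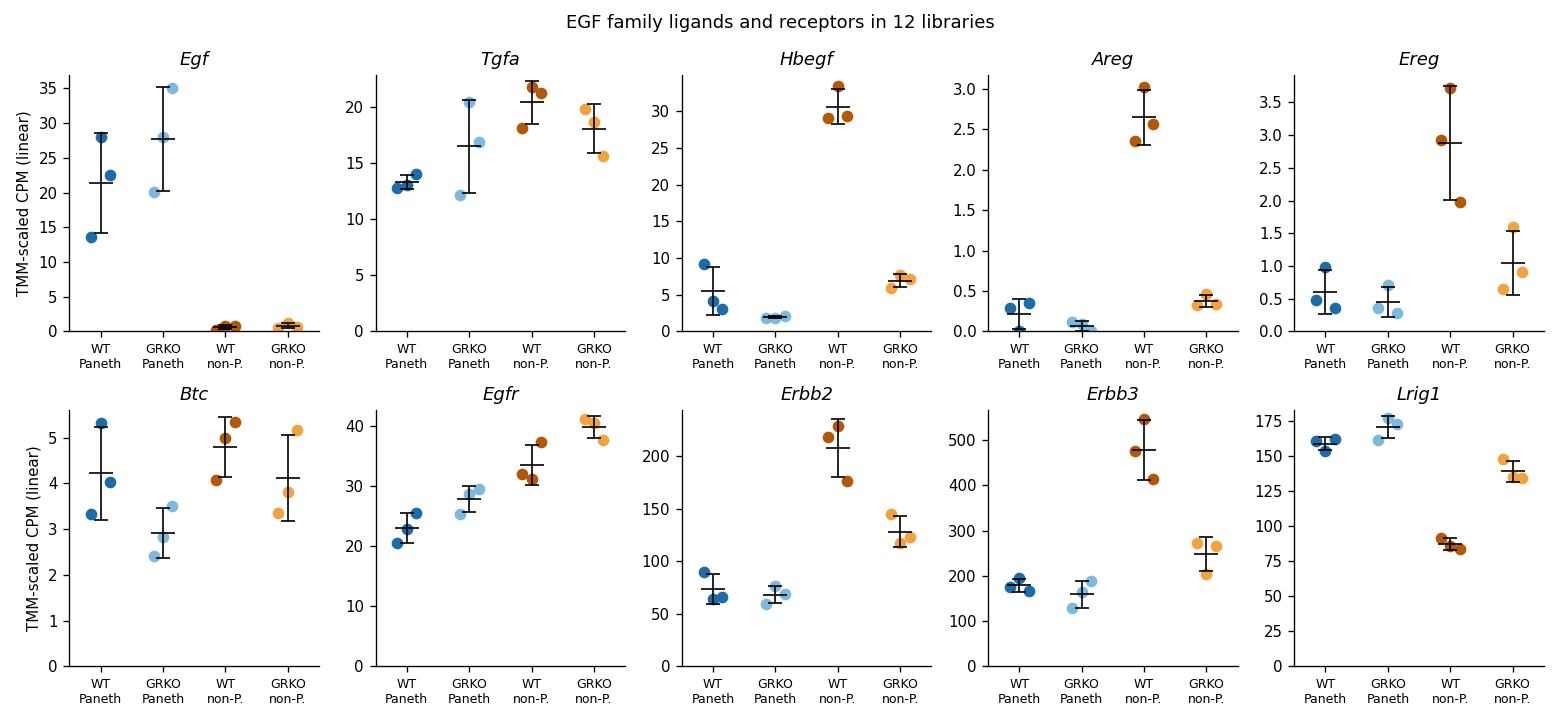
Level of the 10 genes in each of the 12 libraries, as TMM-scaled CPM on linear axes that start at 0. Points are libraries (replicates 1 to 3 from left to right), and bars give the mean and SD of 3. Egf is high in both Paneth groups, Hbegf and Areg are highest in WT non-Paneth cells, and Lrig1 is lowest in WT non-Paneth cells.

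In the GRKO mice the same comparison of fractions called 7 of the 10 genes, 2 higher and 5 lower in Paneth cells, where 39.2% of all tested genes were called, 18% higher and 21.2% lower. Egf was at 13.3, 22.7 and 27.6 CPM in GRKO Paneth and at 0.748, 1.82 and 1.02 CPM in GRKO non-Paneth cells. Its TMM-scaled means were 27.7 and 0.806 CPM, a log2 difference of 5.08 (SE 0.382, adjusted p = 3.71e-07). By library totals, without TMM scaling, the non-Paneth CPM was 5.65% of the Paneth CPM. The interaction of genotype and fraction, which tests whether the 2 log2 differences of Egf are unequal, was -0.01 (SE 0.433, adjusted p = 0.990), an error that leaves room for unequal differences.

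Hbegf was at 1.2, 1.504 and 1.64 CPM in GRKO Paneth and at 8.63, 11.4 and 10.6 CPM in GRKO non-Paneth cells, with a log2 difference of -1.84 (SE 0.318, adjusted p = 0.00034). Areg had 1, 1 and 0 counts in GRKO Paneth and 7, 11 and 8 counts in GRKO non-Paneth cells. The ratio of the TMM-scaled sums of 2 and 26 counts was 0.175, with an exact 95% interval of 0.0201 to 0.697. The fitted log2 difference of -2.37 had an adjusted p of 0.0346, and this call was lost in 9 of 16 alternative settings, with an adjusted p of up to 0.128 without GRKO Paneth replicate 3. Ereg, at 0.223 to 0.573 and 0.951 to 2.39 CPM, did not pass the test (log2 difference -1.18, SE 0.534, adjusted p = 0.0926). Tgfa and Btc had log2 differences of -0.12 (SE 0.171) and -0.49 (SE 0.266) and did not pass either. With library totals alone, where the median of all genes was -1.05, all 10 genes were called. On that scale Tgfa had -1.07 (adjusted p = 0.000207), Btc -1.45 (adjusted p = 0.000134) and Ereg -2.14 (adjusted p = 0.00135).

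The receptor genes were again lower in Paneth cells. Erbb2 had a log2 difference of -0.91 (SE 0.155, adjusted p = 0.000275), Egfr of -0.51 (SE 0.123, adjusted p = 0.00391) and Erbb3 of -0.63 (SE 0.159, adjusted p = 0.0053). The Erbb3 call was lost without GRKO non-Paneth replicate 1 (log2 difference -0.47, adjusted p = 0.0565) or replicate 3 (-0.48, adjusted p = 0.051). Lrig1 was at 107, 143 and 136 CPM in GRKO Paneth and at 215, 202 and 198 CPM in GRKO non-Paneth cells, so that each non-Paneth library was above each Paneth library as a share of the total. On the TMM scale the order turned, with means of 170 and 139 CPM and a log2 difference of 0.29 (SE 0.101, adjusted p = 0.0297). This call was lost without GRKO Paneth replicate 2 (adjusted p = 0.0813) or replicate 3 (adjusted p = 0.0781), and with no filter on low counts (log2 difference 0.23, adjusted p = 0.370). With library totals alone the log2 difference was -0.67 (adjusted p = 0.000453), where the median of all genes was -1.05. The direction for Lrig1 in GRKO mice therefore holds only relative to the other genes. Between the same libraries 5 of the 6 enterocyte markers and all 3 enteroendocrine and 3 proliferation markers (Mki67, Top2a and Cdk1) were called lower in Paneth cells, with median log2 differences of -4.09, -2.18 and -0.79. All 3 tuft cell markers were called higher with a median of 2.26, 2 of the 4 stem cell markers were called higher, and of the 4 goblet cell markers 1 was called higher and 1 lower. The part of these cell types in the differences of the EGF family genes was not tested.

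**Figure D2:**
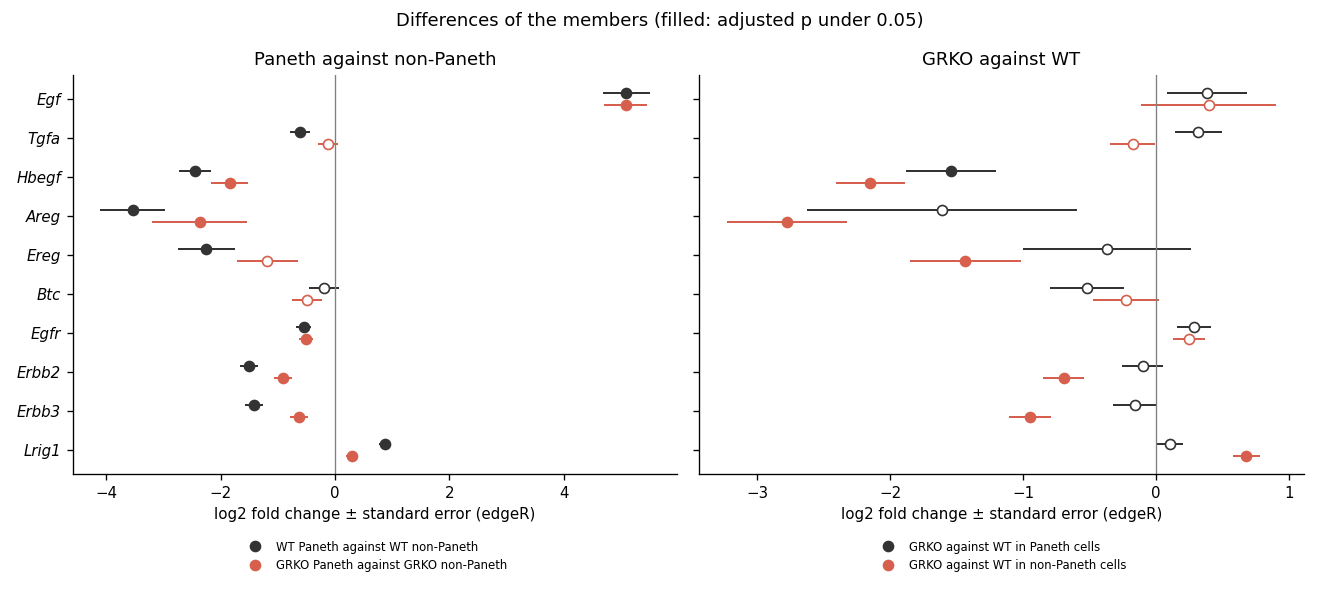
Log2 fold changes of the 10 genes with their standard errors, for Paneth against non-Paneth cells in both genotypes (left) and for GRKO against WT in both fractions (right). Filled points passed the adjusted threshold of 5%. Egf stands alone near 5 on the left, and on the right the non-Paneth points of Areg, Hbegf, Ereg, Erbb3 and Erbb2 are below 0 and that of Lrig1 is above it.

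The second question was what the loss of the glucocorticoid receptor changed in each fraction. Both genotype comparisons share their libraries with the fraction comparisons above, so their values are not independent of these. In non-Paneth cells 6 of the 10 genes were called, Hbegf, Areg, Ereg, Erbb2 and Erbb3 lower and Lrig1 higher in GRKO, where 37.3% of all tested genes were called, 17.5% higher and 19.8% lower. The share among the EGF family genes is thus above that of all genes, but rests on 10 genes that were chosen with earlier results known.

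Hbegf fell from 35.5, 40.0 and 35.8 CPM in WT to 8.63, 11.4 and 10.6 CPM in GRKO non-Paneth cells, with no overlap of the groups. The log2 difference was -2.15 (SE 0.257, adjusted p = 3.86e-05), and it stayed between -2.29 and -1.86 over 17 alternative settings. Areg fell from 2.87, 3.62 and 3.12 CPM to 0.476, 0.691 and 0.509 CPM, and the groups were again apart. Its log2 difference was -2.78 (SE 0.451, adjusted p = 0.000301), and all 17 alternatives called it. Ereg, the neighbour of Areg on chromosome 5, was at 3.57, 4.45 and 2.41 CPM in WT and at 0.951, 2.39 and 1.34 CPM in GRKO, so that the highest GRKO library came just under the lowest WT library. Ereg had a log2 difference of -1.44 (SE 0.418, adjusted p = 0.0141). The Ereg call was lost without GRKO non-Paneth replicate 1 (-1.24, adjusted p = 0.063) or WT non-Paneth replicate 2 (-1.25, adjusted p = 0.0673), the Xist-positive library. Btc, the third neighbour, gave no call (log2 difference -0.22, SE 0.247, adjusted p = 0.506), nor did Tgfa (-0.18, SE 0.167, adjusted p = 0.427) or Egf (0.40, SE 0.507, adjusted p = 0.573).

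Among the receptors of the non-Paneth cells, Erbb3 fell from 580, 654 and 503 CPM to 396, 307 and 394 CPM. Erbb3 had a log2 difference of -0.95 (SE 0.159, adjusted p = 0.000382), between -1.11 and -0.66 over 17 alternatives, each of which called it. Erbb2 was at 267, 273 and 215 CPM in WT and at 211, 175 and 182 CPM in GRKO, where the highest GRKO library came close to the lowest WT library. Its log2 difference of -0.70 (SE 0.153, adjusted p = 0.00256) became -0.41 with an adjusted p of 0.103 with library totals alone. Egfr was at 39.1, 37.4 and 45.5 CPM in WT and 60.2, 60.8 and 55.8 CPM in GRKO, and on the TMM scale the means were 33.6 and 39.8 CPM. Its log2 difference of 0.25 (SE 0.121) had an adjusted p of 0.121, and of 0.0112 with a difference of 0.53 with library totals alone, where the median of all genes was 0.31. Lrig1 rose from 112, 103 and 102 CPM to 215, 202 and 198 CPM. The TMM-scaled means were 86.9 and 139 CPM, a log2 difference of 0.68 (SE 0.101, adjusted p = 0.000165), and the call and direction held in all 17 alternatives.

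Markers of several cell types moved with the genotype in the same non-Paneth libraries. The summed level of the 6 enterocyte markers was 19894 to 23396 CPM in WT and 5296 to 6537 CPM in GRKO, although only 2 of the 6 were called. The 3 proliferation markers summed to 647 to 736 CPM in WT and 1349 to 1449 CPM in GRKO, and all 3 were called higher. The 4 stem cell markers went from 3990 to 5546 CPM in WT to 6294 to 8340 CPM in GRKO, with 3 called higher. The 3 tuft cell markers went from 2.56 to 7.998 CPM to 69.1 to 281 CPM, and all 3 were called higher. Of the 4 goblet cell markers 2 were called lower, with sums of 5677 to 12355 CPM in WT and 6764 to 9052 CPM in GRKO, and none of the 3 enteroendocrine markers was called by edgeR. The immune markers Ptprc, Cd3e, Cd79a and Cd68 summed to 2.67 to 3.06 CPM in WT and 1.59 to 9.87 CPM in GRKO. Of the 2 that were tested Cd68, a macrophage marker, was called lower (log2 difference -1.57, adjusted p = 0.0404). Ptprc was at 0.195 to 0.487 CPM in WT and at 4.83, 9.11 and 0.446 CPM in GRKO. Of the 5 Paneth genes named above, 1 was called higher, Ang4, with a log2 difference of 2.35 (adjusted p = 0.00355). The endothelial markers Pecam1 and Cdh5 summed to 0.195 to 0.543 CPM in WT and 0.318 to 0.629 CPM in GRKO, from 3 to 10 counts of Pecam1 a library and none of Cdh5. The 4 stromal markers Pdgfra, Col1a1, Col1a2 and Dcn summed to at most 0.155 CPM in any non-Paneth library, from 2 counts of Col1a2 and 2 of Dcn. Egr1 is an early gene that stress and handling of cells can switch on. It was at 149, 80.3 and 60.4 CPM in WT and at 18.4, 19.5 and 62.0 CPM in GRKO, and these ranges overlap. The part of these cell types and of handling in the differences of Hbegf, Areg, Ereg, Erbb2, Erbb3 and Lrig1 was not tested.

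In Paneth cells only Hbegf was called between the genotypes, and 3.22% of all tested genes were called, 1.7% higher and 1.52% lower. Hbegf was at 7.60, 2.76 and 2.34 CPM in WT and at 1.2, 1.504 and 1.64 CPM in GRKO Paneth cells, so that all GRKO libraries were below all WT libraries. The fitted log2 difference was -1.54 (SE 0.338, adjusted p = 0.0448). The size of this difference rested on 1 library. Without WT Paneth replicate 1 it was -0.92 with an adjusted p of 0.146. Egr1, an early gene that stress and handling of cells can switch on, was at 281 CPM in that library and at 73.5 and 67.4 CPM in the other WT Paneth libraries, and its part in the Hbegf level was not tested. The call was also lost without GRKO Paneth replicate 2 (adjusted p = 0.224) or replicate 3 (adjusted p = 0.0795), and when the 6 Paneth libraries were fitted alone (adjusted p = 0.133) or scaled by library totals alone (adjusted p = 0.0590).

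The other 9 genes were not called in Paneth cells. Egf had a log2 difference of 0.38 (SE 0.299, adjusted p = 0.428) from 11.2 to 18.3 CPM in WT and 13.3 to 27.6 CPM in GRKO, which overlap. Areg had 6 counts in all in WT and 2 in GRKO, and the ratio of 0.299 with an exact 95% interval of 0.0295 to 1.67 shows that a difference was not detectable at this depth. Erbb2, Erbb3 and Lrig1 had log2 differences of -0.10 (SE 0.156), -0.16 (SE 0.159) and 0.10 (SE 0.101). Egfr had 0.28 (SE 0.128, adjusted p = 0.174), Tgfa 0.32 (SE 0.179, adjusted p = 0.268), Btc -0.52 (SE 0.279, adjusted p = 0.246) and Ereg -0.37 (SE 0.629, adjusted p = 0.737). In these libraries the tuft cell markers summed to 98.3 to 240.4 CPM in WT and 239 to 646 CPM in GRKO, with 0 of 3 called, and the immune markers to 3.24 to 5.03 and 2.23 to 23.6 CPM. Of these Ptprc was at 0.235 to 4.31 CPM in WT and at 12.5, 23.3 and 1.64 CPM in GRKO. Cd3e had no counts in GRKO and Cd79a had 2, in replicate 1. Cd68 was at 0.324 to 3.14 CPM in WT and 0.286 to 0.595 CPM in GRKO.

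Whether the genotype acted differently on the fractions was tested by the interaction, in which a positive value means that the log2 difference of GRKO against WT was higher in Paneth than in non-Paneth cells. It called 2 of the 10 genes, and 18.7% of all tested genes, 11.5% higher and 7.28% lower. Erbb3 had an interaction of 0.79 (SE 0.225, adjusted p = 0.0251), from -0.16 in Paneth and -0.95 in non-Paneth cells. This call was lost when any 1 of 5 libraries was left out, with adjusted p-values of 0.0554 to 0.0643 without GRKO Paneth replicate 2 or 3, WT Paneth replicate 3, GRKO non-Paneth replicate 2 or WT non-Paneth replicate 2, and it was 0.53 with an adjusted p of 0.155 with library totals alone. Lrig1 had an interaction of -0.57 (SE 0.143, adjusted p = 0.0129), from 0.10 and 0.68, and leaving out single libraries kept it between -0.60 and -0.53. With no filter on low counts the Lrig1 value was -0.59 and missed the threshold (adjusted p = 0.0655). Erbb2 had 0.59 (SE 0.218, adjusted p = 0.0699), and 7 alternative settings brought it past the threshold. Among these was the replicate block, which pairs the fractions by replicate number (0.60, adjusted p = 0.0437, and 0.49, adjusted p = 0.0321, with GC and length trends removed as well). The block pairs the GRKO fractions too, whose numbers are not shown to pair (correlation 0.0129 for replicate 1). For Hbegf the interaction of 0.61 (SE 0.430, adjusted p = 0.351) became 1.23 (adjusted p = 0.01) without WT Paneth replicate 1. The interactions of Areg, Ereg, Btc, Tgfa and Egfr were not called, so that the lower Areg and Ereg of GRKO non-Paneth cells were not shown to be particular to that fraction. Tgfa alone of these 5 passed in a setting, with 0.67 (adjusted p = 0.0404) without GRKO Paneth replicate 1. Markers moved in the interaction too, with all 4 stem cell, 2 of 3 tuft cell and 2 of 3 proliferation markers called lower and 1 of 6 enterocyte markers called higher, and their part was not tested.

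Levels of different genes were compared per length, as TPM, the counts per exonic length scaled to the same total in every library, and only within a group. In WT Paneth cells Erbb3 came first with a mean of 21.7 TPM and Lrig1 next with 19.4 TPM, and their libraries overlapped. Erbb2 followed with 10.5 TPM, apart from both neighbours in the order. Egfr, Tgfa, Egf, Hbegf and Btc were at 1.53, 1.51, 1.31, 0.857 and 0.70 TPM, and each of these overlapped with the next. Areg and Ereg came last with 0.144 and 0.1 TPM and overlapped. In WT non-Paneth cells the order was Erbb3 with 321 TPM, Erbb2 with 162 TPM, Lrig1 with 58.0 TPM and Hbegf with 25.4 TPM, and each was apart from the next. Tgfa and Egfr overlapped at 12.7 and 12.3 TPM, Areg, Btc and Ereg were at 9.17, 4.49 and 2.72 TPM, and Egf closed the order at 0.211 TPM. In GRKO non-Paneth cells Lrig1 reached 132 TPM and overlapped with Erbb2 at 143 TPM, while Egfr at 20.8 TPM and Tgfa at 16.0 TPM stood above Hbegf at 8.15 TPM. In GRKO Paneth cells Lrig1, Erbb3 and Erbb2 led with 22.3, 21.3 and 10.5 TPM, each overlapping with the next.

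The make-up of the ligand transcripts differed between the groups, and so did their sum. The summed TPM of the 6 ligands had a mean of 4.62 in WT Paneth and 4.96 in GRKO Paneth cells. It was 54.7 in WT non-Paneth and 33.3 in GRKO non-Paneth cells, and these TPM are not TMM-scaled. As a share of the summed TPM of the 6 ligands, Egf made up 28.9% ± 8.78 (SD, n = 3) in WT Paneth and 38.4% ± 4.50 in GRKO Paneth cells, and 0.376% ± 0.179 and 1.18% ± 0.457 in the non-Paneth cells. Hbegf made up 46.5% ± 1.37 in WT non-Paneth cells and 24.5% ± 2.16 in GRKO non-Paneth cells. The share of Tgfa was 23.2% ± 1.27 in WT and 48.1% ± 6.52 in GRKO non-Paneth cells, although its own level was not called different. Areg made up 16.7% ± 0.607 in WT and 5.57% ± 0.716 in GRKO non-Paneth cells. In Paneth cells Tgfa and Egf had the highest mean shares in both genotypes, Tgfa with 32.5% ± 2.96 in WT and 41.1% ± 4.42 in GRKO. Hbegf had 18.0% ± 11.1 in WT and 5.58% to 7.89% in GRKO Paneth cells. In WT Paneth replicate 1 Hbegf had 30.8% and Egf 19.0%, so that the order of the means did not hold in that library. The shares of 1 library add up to the whole, so a higher share of 1 ligand can come from a lower level of another. The length used for Egf matters too: with the longest transcript in place of all exonic bases its share was 37.7% in WT and 48.7% in GRKO Paneth cells, and it came before Tgfa and Egfr in the order of levels, with overlap.

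**Figure D3:**
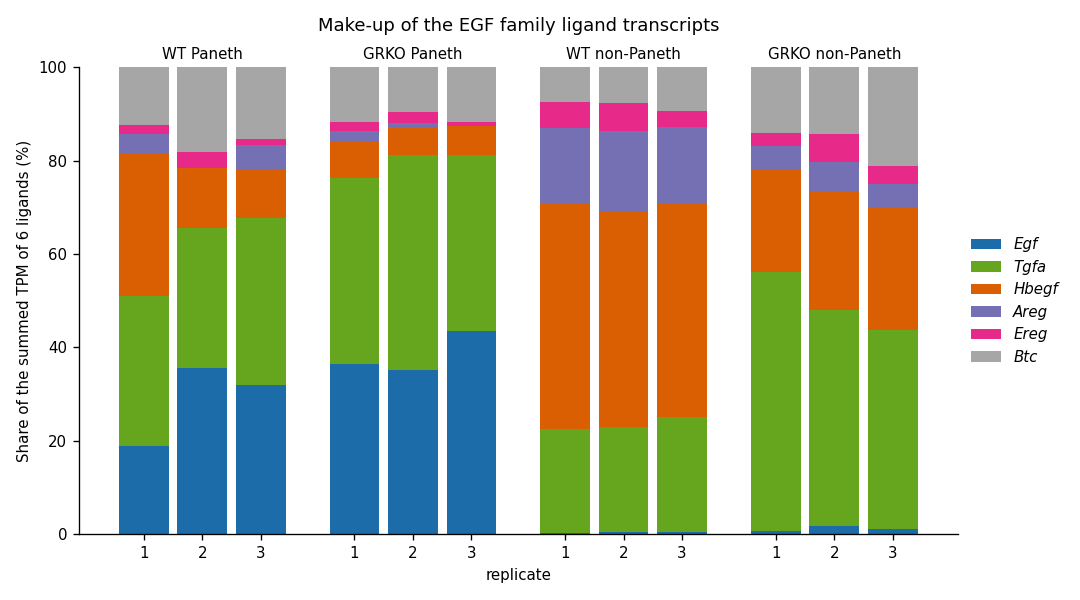
Share of each of the 6 ligands in their summed TPM, in percent, for every library (3 bars a group, numbered by replicate). Egf and Tgfa have the highest mean shares in the Paneth bars, where Hbegf has 30.8% in WT replicate 1, Hbegf takes 45.4% to 48.1% of the WT non-Paneth bars, and Tgfa takes 42.6% to 55.3% of the GRKO non-Paneth bars.

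Other genes of the pathway were described by lists. Of the other ErbB ligands and the receptor Erbb4, only Nrg4, a ligand of ErbB4, passed the filter on low counts, and it was not called in any comparison. Epgn, Nrg1, Nrg2, Nrg3 and Erbb4 were too low to be tested.

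Of 7 tested genes for ligand shedding, 2 were higher and 4 lower in WT Paneth cells, with a median log2 difference of -0.61 where that of all genes was 0.01 and 24% of all genes were called higher and 26.7% lower. The count of 6 fell to 3 when only the groups compared were fitted. Frmd8, which stabilises the protease complex on the cell surface, was at 12.98 to 17.8 CPM in WT Paneth and 101 to 113.7 CPM in WT non-Paneth cells, with a log2 difference of -2.17 (SE 0.149, adjusted p = 2.04e-08). The protease genes Adam10 and Adam17 were lower as well, with log2 differences of -0.89 (SE 0.153) and -0.62 (SE 0.133). Rhbdf1, a carrier of Adam17, was higher with 0.75 (SE 0.277, adjusted p = 0.037). Rhbdf1 was at 24.7, 8.68 and 9.53 CPM in WT Paneth and at 14.8, 13.4 and 12.3 CPM in WT non-Paneth cells, so that replicate 1 stood apart and the ranges overlap. With library totals alone 4 of the 7 were called, none of them higher. In GRKO non-Paneth cells 1 of the 7 was called, Frmd8, at -0.83 (SE 0.138, adjusted p = 0.000364), where 37.3% of all genes were called. In GRKO Paneth cells edgeR called 0 of the 7, with 3 at an unadjusted p under 0.05 and 2 called by DESeq2. Of all 13057 genes edgeR called 3.22%, 3491 were at an unadjusted p under 0.05, and DESeq2 called 1421. Leaving out replicate 1 of GRKO Paneth brought the edgeR count of the list to 1 and that of all genes to 1618. Leaving out replicate 3 of WT Paneth brought them to 2 and 617.

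Of 11 tested genes for feedback and receptor turnover, 1 was higher and 5 were lower in WT Paneth cells. The median log2 difference of the list was -0.39, where that of all genes was 0.01. Of all genes 50.7% were called, 24% higher and 26.7% lower. Errfi1, a feedback inhibitor of Egfr, was at 10.1 to 12.8 CPM in WT Paneth and 34.4 to 50.3 CPM in WT non-Paneth cells, a log2 difference of -1.13 (SE 0.171, adjusted p = 5.51e-05). In GRKO non-Paneth cells it was at 17.6 to 23.8 CPM, a log2 difference of -1.25 (SE 0.166, adjusted p = 6.76e-05) from WT. There 3 of the 11 were lower and 1 was higher, near the 37.3% of all genes, the lower ones being Errfi1, the ubiquitin ligase gene Cblc at -0.77 (SE 0.129) and Lrig2 at -0.58 (SE 0.171). The higher one was Sh3kbp1, which the rule for named genes did not pick and which is named here after its value was seen. In Paneth cells edgeR called 0 of the 11 between the genotypes, with 4 at an unadjusted p under 0.05 and 2 called by DESeq2. Of all 13057 genes 3491 were at an unadjusted p under 0.05, and DESeq2 called 1421. Leaving out replicate 1 of GRKO Paneth brought the edgeR count of the list to 2 and that of all genes to 1618. Leaving out replicate 3 of WT Paneth brought them to 1 and 617.

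All 22 genes of the RAS, MAP kinase and PI3 kinase relay were tested. In GRKO non-Paneth cells 2 were higher and 4 lower, with a median of 0.01 against 0.02 for all genes, of which 37.3% were called. Akt1, a kinase below PI3 kinase, was higher by 0.72 (SE 0.115, adjusted p = 0.000283), and the MAP kinase kinase genes Map2k1 and Map2k2 were lower, with -0.54 (SE 0.152) and -0.58 (SE 0.127). With library totals alone 6 of the 22 were called and all 6 were higher, so that the calls of the 4 lower genes were lost, although mean CPM stayed lower in GRKO for Map2k1 (97.0 and 81.6) and Map2k2 (250.3 and 204.7). In Paneth cells 1 of 22 was called, Ptpn11, the gene of the phosphatase SHP2, with 0.53 (SE 0.127, adjusted p = 0.0448), where 3.22% of all genes were called. The count was 0 with library totals, when only the groups compared were fitted, and without GRKO Paneth replicate 2 or 3 or WT Paneth replicate 1 or 2. It was 2 without WT Paneth replicate 3, 4 with DESeq2 and 6 without GRKO Paneth replicate 1. The counts of all genes in these settings were 617, 1421 and 1618. In WT Paneth against WT non-Paneth cells 1 was higher and 10 were lower, with a median log2 difference of -0.30 where that of all genes was 0.01. Of all genes 50.7% were called, 24% higher and 26.7% lower. With library totals alone 21 of the 22 were lower, where 8989 of all 13057 genes were called, 1097 of them higher. Without WT non-Paneth replicate 1 the count of 11 was 7, and without WT non-Paneth replicate 2 it was 6.

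Of 15 tested ERK-induced genes and brakes of ERK, 6 were higher and 3 lower in GRKO non-Paneth cells, where 37.3% of all genes were called. The count of 9 was 5 without GRKO non-Paneth replicate 1 or 2 or WT non-Paneth replicate 2, and 4 without WT non-Paneth replicate 1. Dusp6, a phosphatase that switches ERK off, was at 44.1, 79.5 and 91.1 CPM in WT and 16.4, 17.9 and 14.5 CPM in GRKO non-Paneth cells. The log2 difference was -2.43 (SE 0.282, adjusted p = 6.32e-05), and the groups were well apart. Dusp5, a phosphatase of the same family that acts in the nucleus, was lower with -1.10 (SE 0.206, adjusted p = 0.000831), while Ccnd1, the gene of cyclin D1, was higher by 0.73 (SE 0.203, adjusted p = 0.0115) and Dusp4 by 0.67 (SE 0.219, adjusted p = 0.0262). Called genes of this list thus lay on both sides of 0. In Paneth cells edgeR and DESeq2 called 0 of the 15 between the genotypes, with 3 at an unadjusted p under 0.05. Of all 13057 genes 3491 were at an unadjusted p under 0.05, and DESeq2 called 1421. Without GRKO Paneth replicate 1 edgeR called 1 of the list and 1618 of all genes. Between the fractions of WT mice 2 were higher and 2 lower in Paneth cells, where 50.7% of all genes were called. The called genes included Phlda1, higher by 2.32 (SE 0.163, adjusted p = 2.36e-08), and Dusp6, lower with -1.29 (SE 0.276, adjusted p = 0.00179). With library totals alone 11 of the 15 were called, as were 8989 of all 13057 genes.

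**Figure D4:**
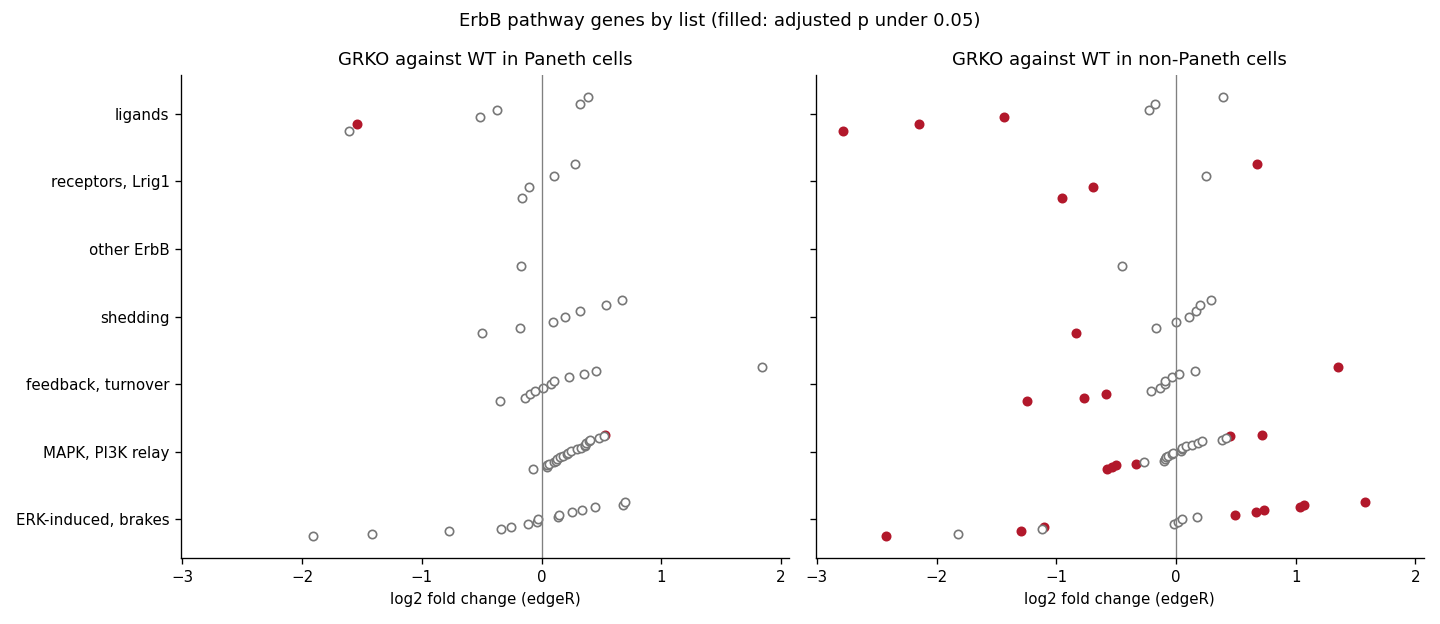
Log2 fold changes of the tested genes of each list in GRKO against WT, for Paneth cells (left) and non-Paneth cells (right). Each point is a gene, and filled points passed the adjusted threshold of 5%. In Paneth cells 2 points are filled, Hbegf and Ptpn11, and in non-Paneth cells filled points lie on both sides of 0, with Areg lowest at -2.78.

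The genes whose levels followed each member most closely were taken as the 2 with the highest Pearson correlation of log2 CPM over the 12 libraries. The 12 libraries share cell fraction and genotype, so that these correlations describe mostly the differences between the 4 groups. For Egf they were Irak3 (r = 0.995) and Nucb2 (r = 0.994). For Hbegf they were Adck5 (r = 0.981) and Tmem82 (r = 0.976), for Areg D17H6S53E (r = 0.969) and Pi4k2a (r = 0.960), and for Ereg Tmem117 (r = 0.975) and Lrrc8a (r = 0.965). Btc had the loosest fit, with Nxt2 (r = 0.903) and Tmem126b (r = 0.883), and Tgfa had Sbk1 (r = 0.949) and Tmem131 (r = 0.944). For the receptors they were Ipo8 and Opa1 with Egfr (r = 0.978 and 0.975), Acp6 and Ihh with Erbb2 (r = 0.992 and 0.988), and Pfkfb4 and Abcg8 with Erbb3 (r = 0.990 and 0.986). Lrig1 was followed most closely by Gtf2i (r = 0.990) and Tmem131l (r = 0.982).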

How the data were processed

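The deposited table holds raw counts per gene, made by the authors from single-end NovaSeq reads of TruSeq stranded libraries with Trimmomatic 0.39 and STAR 2.7.10a against mm39, with an annotation given in the methods as gencode v28. These values are counts as deposited, whole and not normalized, for 12 libraries of 3 in each group. The labels and the methods name different RNA kits. Which strand was counted is not stated.

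Of 55414 Ensembl identifiers, 54749 (98.8%) were named through GENCODE vM39. Counts were fitted in 1 edgeR 4.0.16 quasi-likelihood model (R 4.3.3) over all 12 libraries with TMM factors and edgeR's own filter on low counts, with Benjamini-Hochberg adjustment over the 13057 genes tested. A gene was called at 5%. The code was tested on simulated data. CPM were computed from library totals and TPM from the union of exonic bases. DESeq2 1.42.0, RLE factors, library totals, no filter, a stricter filter (count minimum of 10), only the groups compared, a replicate block, removal of GC and length trends, 1% and each library left out were the alternatives. The motif search of the ligand proteins was not run, and protein sequences were not used here. Correlations used log2 CPM with a prior count of 2.

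All 10 members were named in every comparison. Of each pathway list, at most the 4 genes with the largest absolute log2 fold change were named, among called genes that reached 10 CPM in 1 of the compared groups. The members and lists were chosen with earlier results of these data known. Libraries of 1 group differed by more than sampling noise (chi-square per degree of freedom 12.3 to 47.1). After removal of the group means, the correlation between both WT fractions of 1 replicate number was 0.349, 0.229 and 0.238, above the limit of 0.1, and so the numbers were taken to pair these fractions. The labels give no batch, so that a batch that followed genotype or fraction cannot be told apart from it.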

Additional observations from a re-analysis of the deposited data

Results flagged for a closer look

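The following values were set apart because the effect of the genotype differed between Paneth and non-Paneth cells by the interaction term of the edgeR fit, where a positive value means a higher log2 difference of GRKO against WT in Paneth cells. Among the EGF family genes these were Erbb3 with 0.79 (SE 0.225, adjusted p = 0.0251) and Lrig1 with -0.57 (SE 0.143, adjusted p = 0.0129). Among the pathway lists the largest was Dusp6 with 2.39 (SE 0.395, adjusted p = 0.00228), followed by Dusp5 with 1.78 (SE 0.299, adjusted p = 0.00149) and Errfi1 with 1.33 (SE 0.242, adjusted p = 0.00242). Frmd8 had 1.03 (SE 0.205), Map2k1 0.93 (SE 0.219), Cblc 0.77 (SE 0.188), Map2k2 0.76 (SE 0.180) and Mapk3 0.55 (SE 0.159). Etv5, an ERK-induced transcription factor gene that the rule for named genes did not pick and that is named after its value was seen, had -1.11 (SE 0.274, adjusted p = 0.0128). By list the interaction called 1 of 7 tested genes for shedding and 2 of 11 for feedback and turnover. It called 3 of 22 relay genes and 3 of 15 ERK-induced genes and brakes. Of all tested genes 18.7% were called, a share near that of these lists. With library totals alone the interaction called 1 of the 11 genes for feedback and turnover in place of 2, and 1 of the 22 relay genes in place of 3. The median of all genes was -0.28 on that scale.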

How the results depend on the processing

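Of 50 log2 differences of the 10 genes over 5 comparisons, 25 were called, and 15 of these kept direction and call in every alternative. Library totals alone turned Lrig1 in GRKO Paneth against GRKO non-Paneth cells to -0.67, and among values not called Btc and Tgfa in GRKO against WT non-Paneth cells to 0.0637 and 0.11 and the interaction of Egfr to -0.23. The interaction of Egf turned to 0.0217 with DESeq2 and 0.0336 with RLE factors, and that of Egfr to -0.0292 after removal of GC and length trends and -0.0291 with the replicate block added. Leaving out single libraries gave -0.26 to 0.43 for the interaction of Egf, -0.0437 to 0.12 for that of Egfr, -0.0872 to 0.59 for Egf in GRKO against WT non-Paneth cells, -0.19 to 0.0729 and -0.88 to 0.13 for Erbb2 and Ereg in Paneth cells, and -0.31 to 0.0451 for Tgfa between the GRKO fractions.

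The count of genes called in GRKO against WT Paneth cells, 420, was 1421 with DESeq2, 2 with library totals, 1780 with no filter, 977 with the replicate block, 122 after removal of GC and length trends, 715 with both, 0 at 1%, and 0 when only the groups compared were fitted (2341 at an unadjusted p under 0.05). It was 0 to 1618 without single libraries (0 when replicate 2 of GRKO Paneth and 1 when replicate 1 of WT Paneth was left out). The member call there was lost (0 of 10) with library totals, with only the groups compared and at 1%, and was 0 to 1 without single libraries. Library totals gave 10784 calls between the GRKO fractions. At 1%, 3002 genes were called in GRKO against WT non-Paneth cells and 955 in the interaction, which gave 1563 to 2607 without single libraries. The interaction called 1 member with library totals (Erbb3 was lost) or no filter (Lrig1 was lost), 0 at 1% and 1 to 4 without single libraries. The replicate block changed no member call between the WT fractions and brought the interaction of Erbb2 past the threshold (adjusted p = 0.0437). Between the GRKO fractions, where the numbers are not shown to pair (correlations 0.0129, 0.262 and 0.465), it gave adjusted p-values of 0.0534 for Areg, 0.0575 for Lrig1 and 0.0441 for Ereg, and without a filter the Lrig1 call there was lost as well (adjusted p = 0.370), and between the genotypes the numbers do not pair.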
